A study of Homo sapiens with 2 samples.

Results

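Genes whose proteins detect, split, clear or terminate ribosomes on messenger RNA were followed in a pair of PAR-CLIP libraries, as targets of the RNA-binding proteins ZC3H7A and ZC3H7B. They were chosen by name, as ribosome stalling, rescue and release factor genes, and matched on the gene name in both deposited tables. There are 10 of them among the 10145 genes listed in either table. Of these, 9 had clusters with ZC3H7A and 9 with ZC3H7B, and 8 had clusters with both. PAR-CLIP (photoactivatable-ribonucleoside-enhanced crosslinking and immunoprecipitation) labels RNA with 4-thiouridine, crosslinks it to a protein with ultraviolet light and sequences the fragments that come down with that protein. A crosslinked 4-thiouridine is read as a T-to-C conversion, and overlapping reads that carry conversions are grouped into clusters.

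Both libraries came from HEK293, a human embryonic kidney line, and the growth protocol also names Flp-In T-REx 293 cells. In one, Flag/HA-tagged ZC3H7A was overexpressed, and in the other Flag/HA-tagged ZC3H7B. In both, expression was induced with doxycycline at 1 µg/mL for 24 h, 4-thiouridine was given at 100 µM for 16 h, and cells were irradiated at 365 nm. Each protein had 1 library and none served as a control. No difference could therefore be tested against replicate error, and the values describe an induced, tagged protein rather than the endogenous one. The levels of the messenger RNAs themselves were not analysed here, so more RNA and more binding per RNA cannot be told apart. The study's title asks about control of translation and mRNA stability that depends on codons, and the comparisons below give which of these transcripts, and which regions of them, were recovered with each protein.

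The libraries differed in depth and in duplication. The ZC3H7A library held 3779662 reads made of 300342 distinct reads on 8204 genes, or 12.6 reads for each distinct read. The ZC3H7B library held 2409465 reads made of 1212989 distinct reads on 9159 genes, or 1.99. Each tagged gene had more reads where its own protein was tagged, with 82704 against 158 for ZC3H7A and 3768 against 1362 for ZC3H7B. Intervals below are exact 95% intervals for counting error only. Those given for mean reads per cluster count the error of the reads alone and take the cluster numbers as fixed. Repeated reads may be PCR copies and were not shown to be independent. Intervals on reads can therefore be too narrow even for counting error.

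When a ribosome stalls, the next one runs into it, and the collision is recognised by the ubiquitin ligase ZNF598 and by GCN1 (GCN1L1 in these tables). A helicase complex that holds ASCC3 then splits the leading ribosome. Ribosomes that stop with an empty A site are instead split by PELO with its GTPase partner HBS1L and the ATPase ABCE1. NEMF and the ubiquitin ligase LTN1 act on the large subunit that still holds the unfinished chain, and the chain is marked for the proteasome. ETF1 and GSPT1 are the release factors eRF1 and eRF3a, which end normal translation at stop codons. PELO and HBS1L are relatives of ETF1 and GSPT1.

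The members did not lie on one side. Of the 8 genes listed in both, ZNF598 and GSPT1 had more reads with ZC3H7A beyond 2-fold, and none had more with ZC3H7B beyond 2-fold. Over all 7168 genes compared, 18.0% lay beyond 2-fold towards ZC3H7A and 18.2% towards ZC3H7B. A gene was counted here when the whole interval of its log2 ratio, ZC3H7B over ZC3H7A and scaled to a median of 0 over the compared genes, lay beyond 2-fold. With distinct reads in place of reads, ZNF598 alone was counted towards ZC3H7A and none towards ZC3H7B, where 10.1% and 7.28% of all compared genes were. The median log2 ratio of the 8 members was 0.12 with reads and 0.22 with distinct reads, against 0 for all genes, with 5 members above 0 and 3 below with reads. The library totals as the scale would add 0.16 to each log2 ratio, and would then put PELO and GCN1L1 beyond 2-fold towards ZC3H7B.

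**Figure D1:**
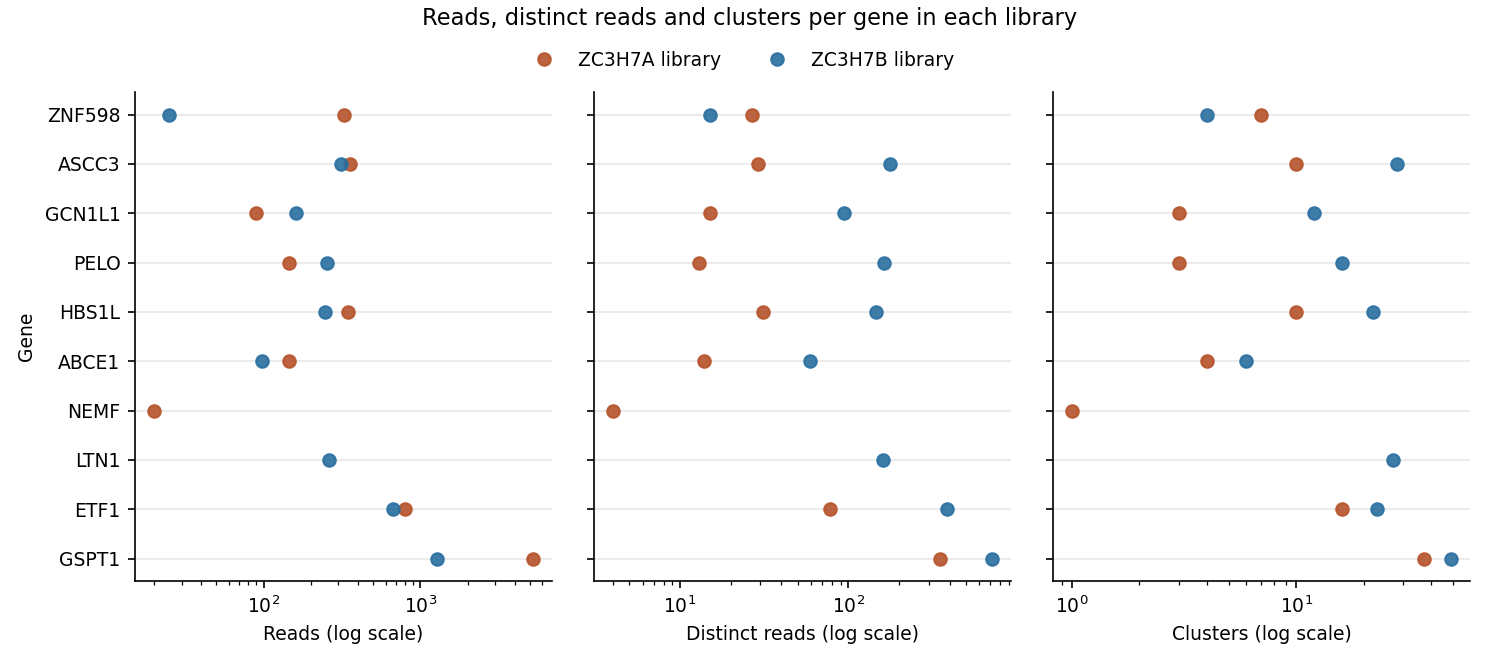
Reads, distinct reads and clusters of each gene on log axes, with 1 point per library (ZC3H7A brown, ZC3H7B blue). NEMF has no ZC3H7B point and LTN1 no ZC3H7A point because they were not listed there, and ZNF598 is the 1 gene of the 8 listed in both whose distinct reads and clusters are lower in the ZC3H7B library.

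ZNF598, which ubiquitinates proteins of the small subunit at collided ribosomes, was recovered mainly with ZC3H7A. It held 324 reads, 27 distinct reads and 7 clusters in the ZC3H7A library, and 25 reads, 15 distinct reads and 4 clusters in the ZC3H7B library. Its log2 ratio was -3.20 (-3.85 to -2.62) with reads, a 9.21-fold difference, and -2.90 (-3.92 to -1.94) with distinct reads. It was the member farthest from the median gene by either count. Before any scaling it was also the one member with fewer distinct reads and fewer clusters for ZC3H7B, as were 8.51% and 14.7% of all compared genes. By mean reads per cluster it stood at -1.42 (-2.07 to -0.83), no longer beyond 2-fold, and its 4 ZC3H7B clusters held 6.25 reads each on average against 46.3 in the ZC3H7A library. Its clusters lay almost wholly in coding sequence, 6 of 7 and 3 of 4, with the remaining cluster of each library in an intron and none in the 3' UTR.

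ASCC3, the helicase that pulls collided ribosomes apart, was close to the median gene. It held 357 reads in 10 clusters for ZC3H7A and 311 reads in 28 clusters for ZC3H7B, at a log2 ratio of 0.29 (0.07 to 0.52), or -0.22 by mean reads per cluster. In distinct reads it held 29 and 178. Coding sequence held 7 of its 10 clusters (70.0%, 34.8 to 93.3%) and 23 of 28 (82.1%, 63.1 to 93.9%). With ZC3H7A, 22.6% of the 4960 genes with at least 3 clusters had a coding share at least as high. With ZC3H7B it was 6.13% of 6672 such genes.

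GCN1L1, which encodes the large scaffold that binds collided ribosomes and activates the kinase GCN2, had more reads with ZC3H7B, short of the 2-fold rule. It held 90 reads in 3 clusters and 161 reads in 12 clusters, at a log2 ratio of 1.33 (0.95 to 1.72). With distinct reads, 15 and 95, the value was 0.61 (-0.19 to 1.50). Coding sequence held all 3 ZC3H7A clusters and 8 of the 12 ZC3H7B clusters, and the other 4 were in the 3' UTR. Of the 3 sensing and splitting genes, then, one was recovered mainly with ZC3H7A and the other two were not, and coding sequence held most clusters of each in both libraries.

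The rescue factor gene PELO differed from these in where its clusters lay, with no account taken of the lengths of the regions. All 3 of its ZC3H7A clusters and 15 of its 16 ZC3H7B clusters (93.8%, 69.8 to 99.8%) lay in the 3' UTR, and the one other cluster lay in coding sequence. In the ZC3H7B library 14.0% of genes with at least 3 clusters had a 3' UTR share at least as high, and in the ZC3H7A library 4.88%. PELO held 145 reads, 13 distinct reads in the ZC3H7A library and 252 reads, 164 distinct reads in the ZC3H7B library. Its log2 ratio was 1.29 (0.99 to 1.60) with reads and 1.60 (0.79 to 2.54) with distinct reads, and the lower bounds lay inside 2-fold. By mean reads per cluster it stood at -0.15 (-0.45 to 0.15), so the higher value came with its 16 clusters against 3. PELO lies within the span of the integrin gene ITGA1 in the RefSeq table. ITGA1 was listed with 3 and 6 clusters, all of them intronic, and the sources used here do not say how reads of overlapping genes were divided.

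HBS1L, the GTPase that delivers PELO, held 343 reads in 10 clusters for ZC3H7A and 246 reads in 22 clusters for ZC3H7B. Its log2 ratio was 0.01 (-0.23 to 0.25), or -0.024 with TMM scaling and -0.013 with a minimum of 100 reads summed, so its direction was not settled. Introns held 7 clusters in each library, which is 70.0% of the ZC3H7A clusters and 31.8% of the ZC3H7B clusters. An intronic share at least as high was found in 1.37% and 6.80% of genes with at least 3 clusters. The remaining ZC3H7A clusters were 2 in coding sequence and 1 in the 5' UTR. For ZC3H7B they were 9 in coding sequence, 5 in the 3' UTR and 1 at the start codon, the only start codon cluster on any of the 10 genes. HBS1L is also spliced to a short form that bridges the exosome and the SKI complex, and the tables give no cluster positions from which the forms could be told apart.

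ABCE1, the ATPase that separates the subunits after both termination and rescue, stood at the median gene. It held 145 reads for ZC3H7A and 97 for ZC3H7B, at a log2 ratio of -0.09 (-0.47 to 0.29), which was 0.019 with distinct reads and 0.070 with library totals as the scale. Of its 4 ZC3H7A clusters, 3 were coding and 1 was in the 3' UTR, and of its 6 ZC3H7B clusters 1 was coding and 5 were in the 3' UTR. This was the widest difference of region among the 8 members, 58.3 percentage points, but with so few clusters the intervals of the coding share (19.4 to 99.4% and 0.42 to 64.1%) overlapped. ABCE1 overlaps the gene ANAPC10, which was listed with 396 and 132 reads, and how reads of overlapping genes were divided is not known here.

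NEMF and LTN1, which act as partners on the large subunit, were each listed in a single library, and not the same one. Of all genes in either table, 9.72% appeared in the ZC3H7A table alone and 19.1% in the ZC3H7B table alone. NEMF, which binds the stalled chain and recruits LTN1, had 1 cluster in coding sequence in the ZC3H7A library, with 20 reads made of 4 distinct reads. Of the 1612 genes within 2-fold of its reads in that library, 68.3% were listed for ZC3H7B and the rest were not. LTN1, the ligase that ubiquitinates the chain, had 27 clusters with 262 reads and 162 distinct reads in the ZC3H7B library and no listed cluster for ZC3H7A. Coding sequence held 15 of these clusters (55.6%, 35.3 to 74.5%), the 3' UTR 11 and an intron 1.

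The absence of LTN1 from the ZC3H7A table was uncommon for its read number. Of the 2450 genes within 2-fold of its reads in the ZC3H7B library, 97.0% were listed for ZC3H7A. Among the 1941 genes listed only for ZC3H7B, whose median was 14 reads, 10 (0.52%) had at least as many reads as LTN1, which is one of them. Reads outside clusters are not in the tables, so not being listed is not a count of 0, and no ratio is given for LTN1 or NEMF. The smallest listed read sum was 5 for ZC3H7A and 4 for ZC3H7B.

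**Figure D2:**
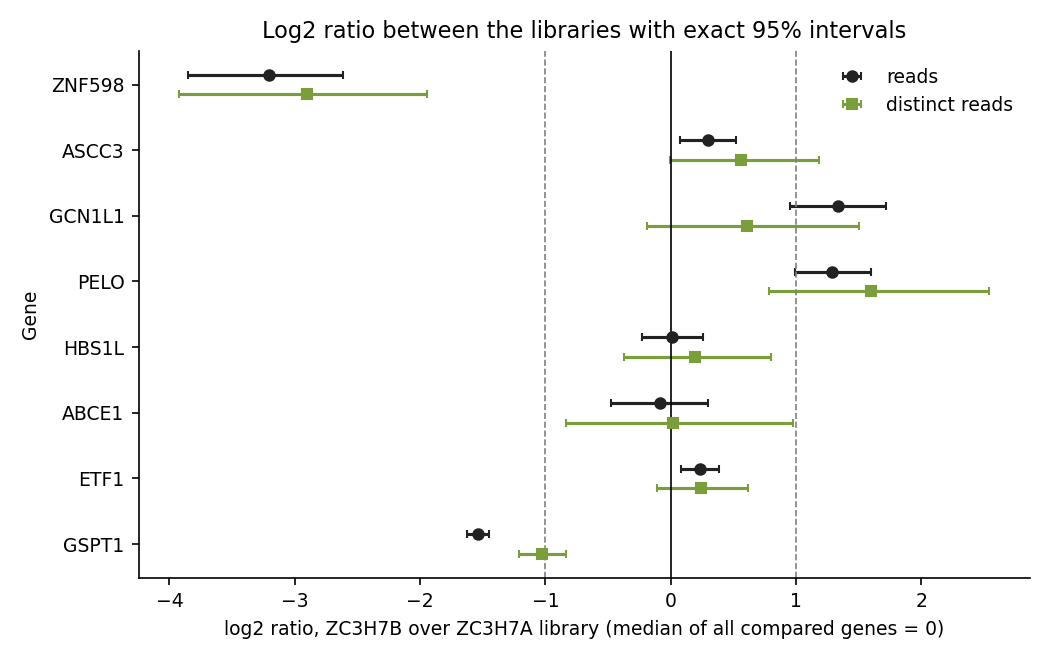
Log2 ratio of each gene listed in both libraries, ZC3H7B over ZC3H7A, with exact 95% intervals for counting error, for reads (black circles) and distinct reads (green squares). Dashed lines mark 2-fold, and ZNF598 is the gene whose intervals lie wholly beyond it by both counts, at -3.20 and -2.90.

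The release factor genes ETF1 and GSPT1, whose proteins work as one complex, also parted. ETF1, which reads the stop codon and releases the chain, held 801 reads in 16 clusters for ZC3H7A and 669 reads in 23 clusters for ZC3H7B. In distinct reads it held 78 and 384. Its log2 ratio was 0.23 (0.08 to 0.38) with reads and 0.24 (-0.11 to 0.61) with distinct reads, near the median gene, and by clusters it was -0.40 (-1.39 to 0.62). The regions were alike in both libraries, with 10 of 16 clusters (62.5%) and 15 of 23 (65.2%) in the 3' UTR and 6 and 7 in coding sequence. Among its 3 pseudogenes in the RefSeq table, ETF1P2 was listed with 449 and 779 reads and ETF1P3 with 51 and 39, in 1 cluster each for ZC3H7A and 2 each for ZC3H7B. Reads are uncertain between such copies, and with these pseudogenes added the totals were 1301 and 1487 and the log2 ratio 0.69 (0.58 to 0.79).

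GSPT1, the GTPase that brings ETF1 to the ribosome, held 5239 reads in 37 clusters for ZC3H7A and 1284 reads in 49 clusters for ZC3H7B. Its share of all reads was 0.139% (0.135 to 0.142%) with ZC3H7A and 0.0533% (0.0504 to 0.0563%) with ZC3H7B. Its log2 ratio was -1.54 (-1.63 to -1.45), a 2.90-fold difference. With distinct reads, 351 and 716, it was -1.03 (-1.21 to -0.84), and the interval then reached inside 2-fold. In the ZC3H7A library its reads were unevenly spread over its clusters. The mean there was 142 reads per cluster and the median 55, and 2.13% of the 8204 genes of that library had a mean as far above their median. Those genes include 2071 with 1 cluster, whose mean and median are equal. The 2.13% is therefore not a share among genes with as many clusters as GSPT1. In the ZC3H7B library the mean was 26.2 and the median 21. GSPT1 also carried 14.9 reads for each distinct read in the ZC3H7A library, above the 12.6 of the library as a whole. The closely related gene GSPT2 was listed in neither table.

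More of the GSPT1 clusters lay in the 3' UTR with ZC3H7B. Coding sequence held 15 of 37 clusters (40.5%, 24.8 to 57.9%) with ZC3H7A and 12 of 49 (24.5%, 13.3 to 38.9%) with ZC3H7B, and the 3' UTR 16 of 37 (43.2%, 27.1 to 60.5%) and 32 of 49 (65.3%, 50.4 to 78.3%). Both sets of intervals overlapped. Over all genes the 3' UTR share of clusters was also higher with ZC3H7B, at 39.8% and 55.8%. A 3' UTR share at least as high as that of GSPT1 was found in 38.7% and 43.5% of genes with at least 3 clusters. GSPT1 was the one member with a cluster at the stop codon, 1 in each library.

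**Figure D3:**
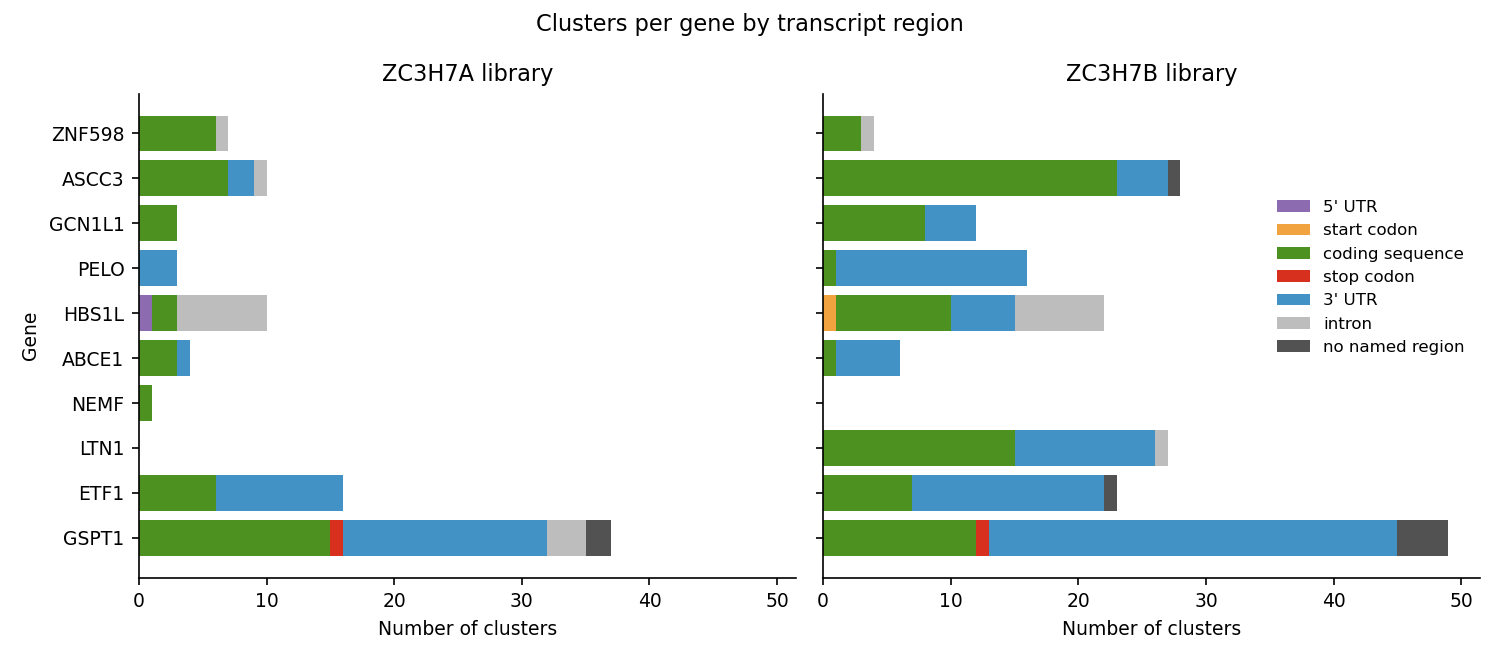
Number of clusters of each gene in the ZC3H7A library (left) and the ZC3H7B library (right), stacked by transcript region. PELO lies nearly all in the 3' UTR, ZNF598 and ASCC3 mostly in coding sequence, and HBS1L has 7 intronic clusters in each library.

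Summed over the 10 genes, the coding share of clusters was 47.3% (36.7 to 58.0%), 43 of 91, with ZC3H7A and 42.2% (35.1 to 49.7%), 79 of 187, with ZC3H7B. The same share over all genes was 42.7% and 29.6%. The 3' UTR held 35.2% (25.4 to 45.9%) and 48.7% (41.3 to 56.1%) of the members' clusters, against 39.8% and 55.8% over all genes. With ZC3H7A the intervals of the members covered the value of all genes for both regions. With ZC3H7B the coding interval lay above it, and the 3' UTR interval reached just past it. No test of this difference was made, and clusters of 1 gene are not independent of each other. The shares were also not scaled to the lengths of the regions. Without GSPT1 the coding share was 51.9% and 48.6%, and the 3' UTR share 29.6% and 42.8%. In the ZC3H7B library, ASCC3 and LTN1 together gave 38 of the 79 coding clusters. Without both, the coding share there was 31.1% (23.3 to 39.7%), 41 of 132, and the 3' UTR share 57.6% (48.7 to 66.1%), and both intervals covered the value of all genes.

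Gene by gene, the members were mixed. Of the 8 members with at least 3 clusters in both libraries, 5 had the higher coding share with ZC3H7A (ZNF598, GCN1L1, ABCE1, GSPT1 and ETF1) and 3 with ZC3H7B (ASCC3, PELO and HBS1L). Over the 4517 genes with as many clusters, 67.8% had it with ZC3H7A. The 3' UTR share was higher with ZC3H7B for 5 members, lower for ASCC3 and PELO and equal at 0 for ZNF598, and was higher with ZC3H7B for 69.2% of the 4517 genes. Both counts for the members are close to these shares. The median difference in coding share, ZC3H7B minus ZC3H7A, was -8.89 percentage points for the members and -10.0 for all genes, and in 3' UTR share 12.4 and 11.1 points. The members' coding differences ran from -58.3 points at ABCE1 to 20.9 points at HBS1L.

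T-to-C conversion, the mark of a direct crosslink, was high on nearly all members, as it was on the middle gene of each library. The share of reads with a conversion was taken as the median over the clusters of a gene. With ZC3H7A it was 100% for 5 of the 9 listed members, where 73.9% of all listed genes reached 100%. With ZC3H7B it ran from 86% (ABCE1) to 100% (ASCC3 and LTN1). There 2 of the 9 listed members reached 100%, against 36.8% of all listed genes. As the mean over clusters, the middle member stood at 93.7% with ZC3H7A and 87.9% with ZC3H7B, and the middle gene of each library at 97.4% and 91.1%. The single NEMF cluster was lowest at 60%, and 1.27% of the genes of its library had a mean as low. GCN1L1 came next in that library, with a mean of 81.6%. ASCC3 had a mean of 100% with ZC3H7A and 88.7% with ZC3H7B. Which conversion share a cluster needed to be listed is not known here, and the distinct reads behind these ZC3H7A values were few, 4 for NEMF and 15 for GCN1L1.

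Another 41 genes that act beside these factors were counted from a list of the pathway, without the 10. Both tables held 25 of these, the ZC3H7A table alone 2, the ZC3H7B table alone 6, and 8 were in neither. Of all genes in either table, the ZC3H7A table alone held 9.72% and the ZC3H7B table alone 19.1%. Of the 25 pathway genes in both, 10 lay beyond 2-fold towards ZC3H7A and 5 towards ZC3H7B, where 18.0% and 18.2% of all compared genes did. Their median log2 ratio was -0.85. With distinct reads the counts were 6 and 3, where 10.1% and 7.28% of all compared genes were counted, and the median was -1.05. The median is below that of all genes, 0, and the members' own median, 0.12, is not.

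Of the 8 genes of termination and recycling in this list, 4 could be compared. These 4 were below 0, at a median of -2.13, and 3 of them were beyond 2-fold towards ZC3H7A (18.0% of all compared genes), or 2 with distinct reads (10.1%). By mean reads per cluster 3 of the 4 were below 0. Of the rest, N6AMT1, which methylates ETF1, was listed only for ZC3H7B, with 16 reads, and JMJD4, which hydroxylates it, only for ZC3H7A, with 44 reads, while GSPT2 and EIF2D were in neither table. EIF5A, a factor that helps peptide bond formation and release, held 1262 and 107 reads, at -3.07 (-3.37 to -2.78). DENR, which acts in recycling of the small subunit, held 830 and 130 reads, at -2.18 (-2.46 to -1.91). MCTS1, the partner of DENR, was the third. Both EIF5A and DENR were beyond 2-fold with distinct reads too, at -2.78 and -1.81. ETF1, at 0.23, did not lie with them, and GSPT1, at -1.54, lay on the same side.

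Among genes of sensing and splitting, GNB2L1, the ribosomal scaffold RACK1, held 2284 and 447 reads, at -1.86 (-2.01 to -1.71). TRIP4, which works in the complex with ASCC3, held 54 and 5 reads, at -2.94 (-4.62 to -1.63). The deubiquitinase USP9X held 164 and 373 reads, at 1.68 (1.41 to 1.95), and the deubiquitinase OTUD3 held 5 and 325 reads, at 6.52 (5.28 to 8.15), with 21 of its 22 ZC3H7B clusters in the 3' UTR. OTUD3 and TRIP4 were also beyond 2-fold with distinct reads, at 4.67 and -3.28, and USP9X was not. Both values rest on a very low count in 1 library. OTUD3 had 1 cluster with 2 distinct reads for ZC3H7A, and TRIP4 had 1 cluster with 3 distinct reads for ZC3H7B. The smallest read sum of any listed gene was 5 for ZC3H7A and 4 for ZC3H7B, so the size of these ratios is uncertain. In all, 3 of 11 compared genes of this role lay beyond 2-fold towards ZC3H7B and 2 towards ZC3H7A, where 18.2% and 18.0% of all compared genes did. With distinct reads the counts were 1 and 2, where 7.28% and 10.1% of all compared genes were counted.

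Of the 4 compared genes that act on the nascent chain, 2 lay beyond 2-fold towards ZC3H7A and 1 towards ZC3H7B. These counts were the same by reads and by distinct reads. Over all compared genes the shares were 18.0% and 18.2% by reads, and 10.1% and 7.28% by distinct reads. VCP, the ATPase that pulls the marked chain from the large subunit, held 1354 and 288 reads, at -1.74 (-1.93 to -1.56), and its cofactor UFD1L 223 and 13 reads, at -3.61 (-4.54 to -2.80). RCHY1, a ligase for tailed chains, held 10 and 131 reads, at 4.20 (3.28 to 5.30). KLHDC10, another reader of such tails, held 1134 and 1112 reads, at 0.46 (0.34 to 0.59). Of the 6 compared rescue genes, 3 lay beyond 2-fold towards ZC3H7A and 1 towards ZC3H7B, where 18.0% and 18.2% of all compared genes did. With distinct reads they were 0 and 1, where 10.1% and 7.28% of all compared genes were counted. The 3 by reads towards ZC3H7A were ZC3H15, DRG1 and RWDD1. ZC3H15 held 1170 and 268 reads, at -1.63 (-1.83 to -1.44). Its partner, the GTPase DRG1, stood at -1.42 (-1.70 to -1.14), and RWDD1 at -1.53 (-1.78 to -1.29). GTPBP2, a GTPase of stalled ribosomes, held 67 and 146 reads, at 1.62 (1.19 to 2.06). VCP, UFD1L, RCHY1 and GTPBP2 were beyond 2-fold with distinct reads as well. RCHY1 and GTPBP2 each had 1 cluster with 3 distinct reads for ZC3H7A, and UFD1L had 9 distinct reads for ZC3H7B. NPLOC4, which works with VCP and UFD1L, was listed only for ZC3H7B, with 105 reads.

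**Figure D4:**
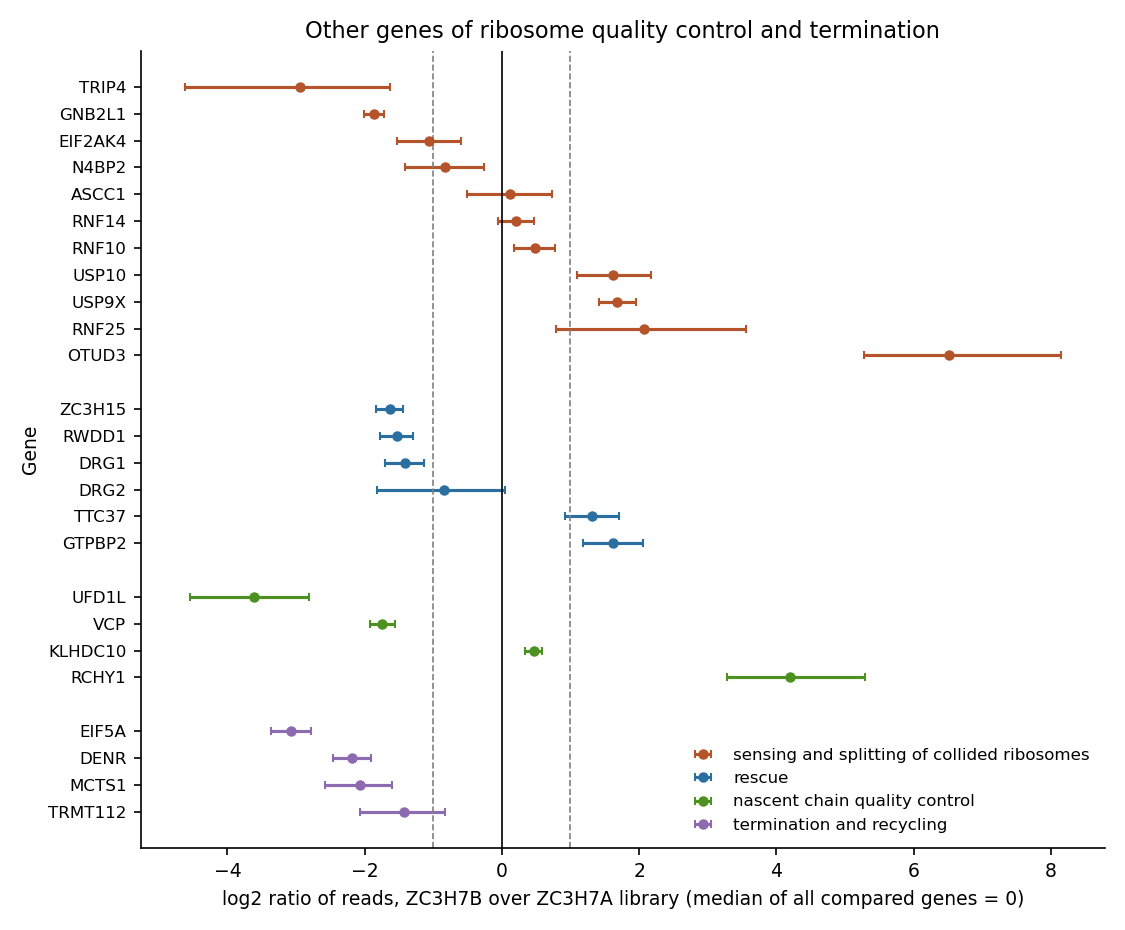
Log2 ratio of reads, ZC3H7B over ZC3H7A, with exact 95% intervals for counting error, for the 25 other pathway genes listed in both libraries, coloured by role. Dashed lines mark 2-fold, and the 4 termination and recycling genes that could be compared lie below 0 while the other roles hold genes on both sides.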

How the data were processed

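The members and gene lists were chosen with earlier results of these data known. Groups came from the sample titles. The submitters' processing notes name build hg19, STAR 2.5.2a, Bowtie and cutadapt without saying what each did, and no cluster caller is named there. The authors deposited 1 table per library, with counts per gene of clusters, reads, distinct reads and clusters by region, and the T-to-C fraction as a median and a sum over clusters. Their exon column was read as coding sequence, because genes with 1 cluster had it there exactly when classed as coding (2071 of 2071 and 1606 of 1606). Rows for classes of repeats or small RNAs were left out (282 and 407, with 1.57% and 1.51% of reads).

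Ratios used genes listed in both tables with at least 20 reads summed. With 1 library per protein no test was possible. Intervals are Clopper-Pearson. Transcript lengths were not used, so read numbers are not compared between genes. Shares of clusters by region were not scaled to region length, so a high share is not a measure of preference for that region. All 10 members matched the RefSeq table (GRCh38.p14), which served for names and overlaps only. No sequence is shown, since cluster positions were not analysed here. Named genes were all members and, of the wider list, the 4 with the most reads in each library and those beyond 2-fold by both counts. MCTS1, NPLOC4, DRG1, RWDD1, N6AMT1, JMJD4, GSPT2 and EIF2D were named after their values were seen. The ratio step was tested on simulated data with independent reads, which cannot show how the intervals behave with repeated reads. Software was Python 3.11.15, pandas 2.3.3, numpy 2.4.6, scipy 1.17.1, matplotlib 3.10.9, and edgeR 4.0.16 in R 4.3.3 for TMM scaling only.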

Additional observations from a re-analysis of the deposited data

How the results depend on the processing

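Direction and the side of 2-fold were compared under each alternative. Of the 2 members beyond 2-fold towards ZC3H7A, ZNF598 stayed there with distinct reads, library totals and TMM scaling, but not with mean reads per cluster (-1.42) or clusters (-1.73), and GSPT1 not with distinct reads (-1.03), mean reads per cluster (-0.97) or clusters (-0.52). The count of such members was 1 with distinct reads and 0 with mean reads per cluster or clusters. With library totals 2 members lay beyond 2-fold towards ZC3H7B, PELO (1.45) and GCN1L1 (1.49). Members not counted beyond 2-fold changed sign with mean reads per cluster (ASCC3 -0.22, PELO -0.15 from 1.29, HBS1L -0.15, ABCE1 0.30), TMM scaling (HBS1L -0.024), a minimum of 100 reads summed (HBS1L -0.013), distinct reads (ABCE1 0.019), library totals (ABCE1 0.070) and clusters (ETF1 -0.40). The cause was not tested.

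Counts beyond 2-fold towards ZC3H7B and ZC3H7A were, over all genes, 522 and 724 with distinct reads, 443 and 333 with mean reads per cluster, and 23 and 16 with clusters. For the wider list they were 3 and 6, 1 and 1, and 0 and 0, and its median was -1.05, -0.22 and -0.51, or -0.69 with library totals and -1.08 with a minimum of 100 reads. With no minimum of reads these counts and the median stayed close to those reported. As the mean of the members' own shares, the coding share was 58.8% with ZC3H7A and its difference -14.5 points. Mean T-to-C shares were below medians of 100% for ZNF598 (86.7%), HBS1L (98.2%) and ETF1 (93.7%) with ZC3H7A and for ASCC3 (88.7%) and LTN1 (91.9%) with ZC3H7B, and GSPT1 had 87.7% against 95% with ZC3H7A. Without ASCC3 and LTN1, the ZC3H7B shares were 31.1% coding and 57.6% 3' UTR, and the differences -13.4 and 20.5 points. Leaving out these members or GSPT1, adding the ETF1 pseudogenes, and setting read minimums for single members were chosen after seeing the data. No paired analysis was possible because each protein has 1 library, so the groups share a single replicate number. Depth limits NEMF, PELO, ABCE1 and GCN1L1 most, with 4 to 15 distinct reads in the ZC3H7A library, and ZNF598, with 15 in the ZC3H7B library.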
